A study of Mus musculus with 6 samples.

Results

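The liver is the main source of hepcidin, the peptide hormone that sets how much iron enters the plasma, and it stores iron in ferritin. The genes described here are 10 mouse genes of this system, Hamp, Hamp2, Bmp6, Hfe, Tfr2, Tfrc, Trf, Slc40a1, Fth1 and Ftl1, chosen by name among 34741 gene names on the array. They were measured by 14 of the 55681 non-control probes. Of these, 13 probes, covering all 10 genes, passed the filter on dim probes (well above background in each of the 3 samples of either tissue) and were tested.

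Total RNA came from 3 normal livers and 3 liver tumors of male C3H/HeN mice, an inbred strain in which liver tumors arise spontaneously. The mice were 74 to 75 weeks old, were offspring in the control group of a project on gestational arsenic exposure, and ate the diet CA-1 and drank tap water. By the study's methods the tumors carried an Ha-ras mutation, while no treatment or engineered allele separated the groups, and whether tumors and normal livers came from the same mice is not given in the sources used here. Each RNA was hybridised to 1 SurePrint G3 Mouse GE array with the dye Cy3. The 3 normal livers lay on one slide and the 3 tumors on another, so an effect of the slide cannot be told apart from that of the tissue in any comparison here. The 75th percentile of the signal was 124, 170 and 177 on the normal arrays and 171, 182 and 183 on the tumor arrays, and 44.7% to 48.9% of non-control spots were well above background. No spot was saturated. Albumin, the most abundant hepatocyte marker, was bright in every sample, between 1923 and 2449 times the array's 75th percentile, so both groups carried hepatocyte RNA as labelled.

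Hepcidin binds ferroportin, the only known cell iron exporter, and causes its removal from the cell surface, which holds iron back in macrophages, enterocytes and hepatocytes. Hepatocytes make hepcidin in response to iron through BMP ligands from sinusoidal endothelial cells and SMAD proteins, with Hfe and Tfr2 as sensors of iron-loaded transferrin, and in response to inflammation through interleukin 6 and Stat3. Mice carry a pair of hepcidin genes where humans carry one, and only the product of the mouse gene Hamp is established as a regulator of ferroportin.

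The mouse hepcidin genes lie next to each other on chromosome 7, Hamp at 30942368-30944029 and Hamp2 at 30922372-30924181 of GRCm38.p6, both on the minus strand and 18187 bases apart. Because they are so alike, the probe sequences decide whether their levels can be told apart, and both probes are shown here with capitals at the bases where they differ. The positions are those of the array design on mm9, chr7:31727490-31727549 for Hamp and chr7:31707520-31707579 for Hamp2, both on the minus strand.
Hamp probe: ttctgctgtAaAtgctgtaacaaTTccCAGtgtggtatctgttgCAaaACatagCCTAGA
Hamp2 probe: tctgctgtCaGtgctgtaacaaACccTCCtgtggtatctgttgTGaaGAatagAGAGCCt
Of 59 aligned bases 42 were identical (71.2%) and 17 differed, and the differences lay mostly in the last part of each probe. Cross-hybridisation between the transcripts was not tested.

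The promoters shared a larger part of their aligned bases than the probes. Gaps were allowed only in aligning the promoters, and 6 gap columns were not counted, so the measures are not the same. Over the 250 bases before and 50 after each RefSeq start site (GRCm38.p6, an assembly of another mouse strain), 276 of 297 aligned bases were identical (92.9%). The stretch from 150 to 51 bases before the start site is shown because it holds the letters of elements known from hepcidin gene control, with capitals at each match to GGCGCC, the core of BMP-responsive elements, and to TTCNNNGAA, the palindrome bound by STAT proteins. These stretches lie at chr7:30944080-30944179 for Hamp and chr7:30924232-30924331 for Hamp2, minus strand.
Hamp promoter: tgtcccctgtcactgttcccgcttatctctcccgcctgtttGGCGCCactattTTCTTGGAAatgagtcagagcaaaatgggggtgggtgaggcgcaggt
Hamp2 promoter: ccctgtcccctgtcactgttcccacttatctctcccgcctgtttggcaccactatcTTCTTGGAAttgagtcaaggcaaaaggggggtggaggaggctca
Hamp held GGCGCC from -109 to -104, and Hamp2 differed there by G4A, counted from 1 at the first base of those 6 letters. Both held TTCTTGGAA, from -97 to -89 in Hamp and from -94 to -86 in Hamp2. GGCGCC stood in 11.9% and TTCNNNGAA in 8.30% of 32851 mouse promoter windows of the same length, on either strand. Windows were found for 8 of the 10 genes, and among the others Tfrc held GGCGCC in 1 of its windows, from -89 to -84, and Bmp6 held CACGTG, the E-box read by basic helix-loop-helix factors, from -127 to -122, a run of letters present in 7.15% of all windows.

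Hamp, which encodes hepcidin, was the gene that differed most. Its expression value, the processed signal as a multiple of the array's 75th percentile, was 170, 275 and 351 in the normal livers and 39.8, 57.2 and 43.1 in the tumors. Every tumor lay below every normal liver. The mean was 265 ± 90.9 (SD, n = 3) in normal liver and 46.7 ± 9.23 (SD, n = 3) in the tumors, 5.51-fold lower by the means of log2 values, with a log2 fold change of -2.46 ± 0.29 (SE) and an adjusted p of 0.0022 by limma. In tissue RNA, fewer cells of a type and less RNA per cell cannot be told apart by the level of 1 gene. The summed value of 10 hepatocyte markers was 93.8% to 97.2% of the normal mean in the tumors, a sum in which the most abundant gene, Alb, weighs most, and the part of hepatocyte number in the lower Hamp was not tested.

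Hamp2 showed no such separation. Its expression values were 5.20, 26.1 and 17.5 in normal liver and 3.61, 8.24 and 17.3 in the tumors. The groups overlapped, and the values spread 5.02-fold within the normal livers and 4.79-fold within the tumors, the widest spread of the 10 genes in both groups. The log2 fold change was -0.73 ± 0.75 (SE), with a 95% interval from -2.55 to 1.08 and an adjusted p of 0.492 by limma. This interval holds 0 and also a change as large as that of Hamp. With 1 array left out at a time, the log2 fold change of Hamp2 ran from -1.41 to -0.16 and was never called. The log2 fold change of Hamp minus that of Hamp2 was -1.73, with an exact two-sided permutation p of 0.2, where 0.1 is the smallest that 3 against 3 samples allow.

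**Figure D1:**
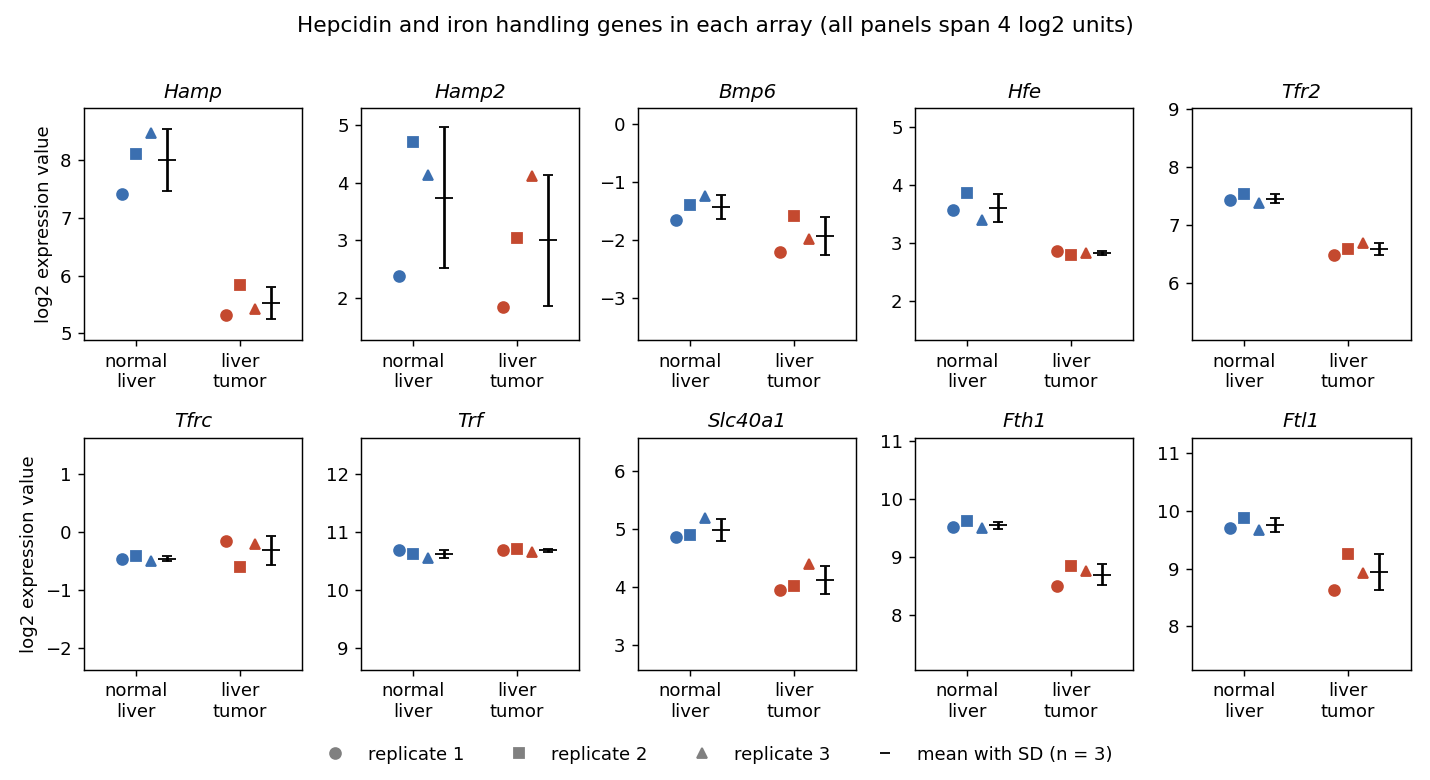
Each panel plots 1 gene, with the log2 expression value (log2 of the signal over the array's 75th percentile) on the vertical axis for 3 normal livers in blue and 3 liver tumors in red, and the mean with its SD in black. The tumors lie wholly below the normal livers for Hamp, Hfe, Tfr2, Slc40a1, Fth1 and Ftl1, and the groups overlap for Hamp2, Bmp6, Tfrc and Trf.

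Of the genes that act before hepcidin in iron sensing, Hfe and Tfr2 fell and Bmp6 was not called. Tfr2 encodes transferrin receptor 2, a hepatocyte sensor of iron-loaded transferrin. It stood at 174, 186 and 167 in normal liver and at 89.8, 95.6 and 103 in the tumors, and its replicates were the closest together of the called genes in normal liver after Fth1. The log2 fold change was -0.87 ± 0.11 (SE), 1.83-fold lower, with an adjusted p of 0.00295 by limma. Hfe, the hemochromatosis protein that partners transferrin receptors, gave 11.8, 14.6 and 10.5 in normal liver and 7.29, 6.91 and 7.14 in the tumors. All tumors were lower than all normal livers, by 1.72-fold, with a log2 fold change of -0.78 ± 0.14 (SE) and an adjusted p of 0.00946 by limma. Bmp6, the main BMP ligand that raises hepcidin with iron, was dim, at 0.315, 0.381 and 0.422 in normal liver and 0.214, 0.333 and 0.251 in the tumors. Tumor 2 lay above normal liver 1, and the log2 fold change of -0.50 ± 0.20 (SE) had an adjusted p of 0.0992 by limma. Without tumor 2 the difference for Bmp6 was -0.67 with an adjusted p of 0.0467, and with normexp background correction it was -0.34 with an adjusted p of 0.0308.

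The genes of iron delivery by transferrin were not called. Trf, which encodes transferrin, the plasma iron carrier made by hepatocytes, gave 1663, 1578 and 1499 in normal liver and 1649, 1671 and 1621 in the tumors. The groups overlapped, with a log2 fold change of 0.061 ± 0.10 (SE), a 95% interval from -0.18 to 0.30 and an adjusted p of 0.676 by limma. A second Trf probe had a log2 fold change of -0.14, and quantile normalization gave 0.30 with an adjusted p of 0.0454, so the direction for Trf depended on the probe and the call on the normalization. Tfrc, transferrin receptor 1, the general route of iron into cells, gave 0.729, 0.753 and 0.709 in normal liver and 0.906, 0.662 and 0.875 in the tumors. Tumor 2 lay below all normal livers and the other tumors above them, and the log2 fold change was 0.14 ± 0.15 (SE) with a 95% interval from -0.21 to 0.50 and an adjusted p of 0.496 by limma. A second Tfrc probe, spotted 10 times, gave 0.31 and was not called either, and the remaining Tfrc probe was not well above background.

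Iron export and storage genes fell. Slc40a1 encodes ferroportin, the target of hepcidin. Its values were 28.9, 29.9 and 36.6 in normal liver and 15.4, 16.2 and 21.1 in the tumors, so the highest tumor was below the lowest normal liver. It was 1.82-fold lower, with a log2 fold change of -0.86 ± 0.17 (SE) and an adjusted p of 0.0111 by limma. Fth1, the ferritin heavy chain, whose ferroxidase site oxidises iron for storage, was 727, 781 and 726 in normal liver and 360, 457 and 430 in the tumors. The fall was 1.80-fold, with a log2 fold change of -0.85 ± 0.13 (SE) and an adjusted p of 0.00491 by limma. Ftl1, the ferritin light chain, which helps form the iron core, was 833, 943 and 808 in normal liver and 396, 611 and 488 in the tumors. It was 1.75-fold lower, with a log2 fold change of -0.81 ± 0.18 (SE) and an adjusted p of 0.0166 by limma. A second Ftl1 probe was also called, at -1.05. Without normal liver 2 the call for Ftl1 was lost, at -0.74 with an adjusted p of 0.0611. Ferritin genes have near-identical copies elsewhere in the mouse genome, and signal from those copies on these probes was not tested.

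In all, 6 of the 10 genes were called lower in the tumors and none higher, and the other 4 were not called. Across the 18544 genes tested, 21.0% were called lower and 13.1% higher. The median log2 fold change of the 10 genes was -0.79, against -0.13 over all genes tested. The groups did not overlap, with the tumors lower, for 6 of the 10 genes and for 33.5% of all genes. By each gene's brightest probe, Hamp was the only one of the 10 to fall by more than 2-fold, as 6.83% of all genes did with a call. By the same probes the other 5 called genes fell within a narrow range, from 1.72-fold for Hfe to 1.83-fold for Tfr2. The second Ftl1 probe lay outside it, at 2.08-fold lower.

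Spike-in scaling cost most of these calls. Quantile normalization kept 5 of the 6 lower calls and lost Ftl1, and normexp background correction called 7 of the 10 genes lower, Bmp6 among them. With each array scaled by 8 spike-in probes, RNAs added in fixed amounts, the median of all probes moved up by 0.20 on the log2 scale, and 2 of the 10 genes kept their call. Standard errors grew as well, for Fth1 from 0.13 to 0.23 and for Hamp from 0.29 to 0.33. Hamp then had a log2 fold change of -2.26 (adjusted p 4.53e-04 by limma) and Tfr2 one of -0.67 (adjusted p 0.042). Slc40a1 at -0.66 (adjusted p 0.0635), Fth1 at -0.65 (0.0647), Hfe at -0.58 (0.094) and Ftl1 at -0.61 (0.122) stayed below 0 without being called. In that scaling 8.01% of all genes were called lower and 14.0% higher. Since this scaling moves every probe of an array alike, the differences relative to the median of all probes did not change, and the 6 called genes were below 0 in all 17 alternatives. The methods' t-test, paired as the study's statistics name it, here by replicate number on linear values and with Benjamini-Hochberg adjustment added, called 0 of the 10 genes and 0 probes in all. With 3 differences per probe this test has little power after adjustment over all probes, and the numbers were not taken as pairs. Its lack of calls therefore decides little about single genes. The unpaired form of the methods' t-test, adjusted alike, lost Hamp (adjusted p 0.0588) and Hfe (adjusted p 0.0540).

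**Figure D2:**
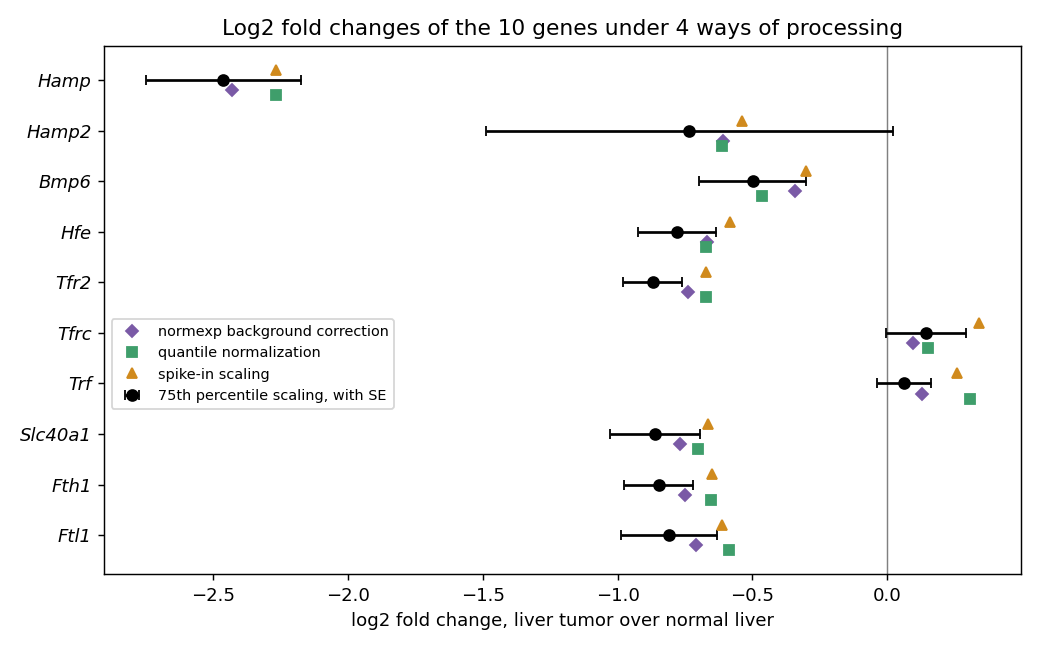
The log2 fold change of the 10 genes, tumor over normal liver, is on the horizontal axis, with black points and SE bars for the 75th percentile scaling and coloured points for normexp background correction, quantile normalization and spike-in scaling. Hamp lies far to the left of the other genes in all 4, and each spike-in point sits 0.20 to the right of the black one.

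The genes also differed in how they varied among samples of one tissue. In normal liver the highest sample was 2.07-fold above the lowest for Hamp, 1.38-fold for Hfe, 1.27-fold for Slc40a1, 1.11-fold for Tfr2 and 1.08-fold for Fth1. Hamp was highest in normal liver 3, whereas Fth1, Ftl1 and Tfr2 were highest in normal liver 2. The ferritin chains moved together: with each group's mean removed, their log2 values had r = 0.96 over the 6 arrays. For Hamp the same measure was highest with Bmp6 (0.87) and lowest with Trf (-0.75), and it was 0.39 with Slc40a1 and -0.04 with Tfr2. These correlations rest on 6 arrays that share their scaling and are given as a description.

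Over the 6 arrays, the genes whose log2 values followed Hamp most closely were Fbxl12 (r = 0.999) and Gltpd2 (r = 0.999), and the closest to Hamp2 was Snx32 (r = 0.997). For Slc40a1 the closest gene was Hmox2, heme oxygenase 2, which breaks down heme (r = 0.999). Tfr2 was followed by Nfix (r = 0.999) and Mylk (r = 0.998), Fth1 by Dpm1 (r = 0.999) and Ces1d (r = 0.999), Ftl1 by Rps4l (r = 0.999), and Hfe by Arih2 (r = 0.998). These were the highest r among genes well above background on all 6 arrays, over 6 points that fall into 2 groups, and they are given as a description.

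The rest of the pathway was read from 86 further genes in 9 lists of iron and heme handling. Of these, 79 were tested, 22 were called lower and 6 higher, and 51 were not called. Their median log2 fold change was -0.29, against -0.13 over all genes. The share called lower was thus above 21.0% and the share called higher below 13.1%, while with spike-in scaling 6 were called lower and 7 higher, with a median of -0.09, neither share above the 8.01% and 14.0% of all genes in that scaling. Without normal liver 2, 16 were called (11 lower), without normal liver 3, 14 were lower, and with no filter on dim probes 13 were called. The count over all probes also fell, from 8238 of 24898 called to 4965 of 25115 without normal liver 2, 5919 of 25196 without normal liver 3 and 4674 of 55681 with no filter. Erfe, Il6, Steap1, Cybrd1, Heph, Cd163 and Ftmt were not tested because they were not well above background on all arrays of either group.

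In the list of hepcidin control by BMP and SMAD, 2 of 13 tested genes fell and 1 rose by their brightest probes. These shares were below the 21.0% and 13.1% of all genes, so the genes are given singly. Fgl1 was not called by its brightest probe, though 1 of its 3 tested probes was called lower. All 3 had log2 fold changes between -1.40 and -1.25. Smad9 fell from 0.941 ± 0.412 to 0.232 ± 0.0446 (SD, n = 3 each), with a log2 fold change of -1.95 ± 0.31 (SE) and an adjusted p of 0.00579 by limma. This SMAD carries BMP signals together with Smad1, which rose (0.53, adjusted p 0.0303 by limma). Tmprss6, matriptase 2, a protease that restrains hepcidin, fell (-0.56, adjusted p 0.0208 by limma). Among 6 genes that BMP signals switch on, Id1 rose and Smad7 fell, beside 13.1% and 21.0% of all genes. The values of Id1 were 0.423, 0.978 and 1.72 in normal liver and 7.09, 3.31 and 5.40 in the tumors, with a log2 fold change of 2.49 ± 0.53 (SE) and an adjusted p of 0.0151 by limma. Smad7, an inhibitory SMAD, gave 0.876, 1.30 and 1.62 in normal liver and 0.614, 0.646 and 0.643 in the tumors (log2 fold change -0.95, adjusted p 0.0208 by limma). Each separated the groups without overlap, and with spike-in scaling Smad7 (-0.76, adjusted p 0.0874 by limma) and Tmprss6 (-0.36, adjusted p 0.3) kept their sign but not their call. Leaving out 1 array, with the range over all 6 such fits in parentheses, kept the call for Smad9 and Id1 in all 6 cases and lost it for Smad7 without normal liver 2 or any 1 tumor (-1.20 to -0.75), for Smad1 without normal liver 1 or 2 or tumor 1 or 3 (0.43 to 0.61), and for Tmprss6 without normal liver 1 or 2 or tumor 2 (-0.64 to -0.46).

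In the list of hepcidin control by inflammation, Inhbb, which encodes a subunit of activin B, rose from 0.354 ± 0.131 to 7.85 ± 1.66 (SD, n = 3 each). Its log2 fold change was 4.51 ± 0.29 (SE), with an adjusted p of 2.67e-04 by limma. Il6ra, the interleukin 6 receptor (-0.64), Il6st, its signalling partner gp130 (-0.50), and Creb3l3, a liver transcription factor that can raise hepcidin (-0.66), all fell, with adjusted p from 0.0096 to 0.0221 by limma. With spike-in scaling none of these 3 was called (adjusted p from 0.161 to 0.41), and the list went from 3 lower and 1 higher of 10 to 0 lower and 2 higher, where the shares over all genes went from 21.0% and 13.1% to 8.01% and 14.0%. The other 6 tested genes of the list were not called, and Il6st lost its call without normal liver 2 or 3 or tumor 1 or 3 (-0.57 to -0.42 over all 6 fits that left out an array).

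Cell iron and heme transport held 2 genes that rose and 4 that fell among 16 tested, shares near the 13.1% and 21.0% of all genes. With spike-in scaling 2 were called higher and 3 lower of the 16, beside 14.0% and 8.01% of all genes, so the share called lower was then above that of all genes. Lcn2, lipocalin 2, which carries iron bound to siderophores and is also an acute-phase and neutrophil protein, was 3.80, 3.03 and 1.91 in normal liver and 201, 66.6 and 97.0 in the tumors. Its rise (log2 fold change 5.29 ± 0.44 (SE), adjusted p 6.85e-04 by limma) was the largest among these lists, and its values spread 3.02-fold among the tumors. Slc48a1, a heme transporter, rose from 17.1 to 56.2 (log2 fold change 1.70, adjusted p 0.00126 by limma). Steap3, a ferrireductase of the endosome, fell from 3.09 to 1.35 (-1.21, adjusted p 0.003 by limma), and Steap2, of the same family, fell by 2.34 on the log2 scale while it was well above background on only 1 tumor array. In the plasma list, Cp, ceruloplasmin, the ferroxidase made by hepatocytes, rose from 298 ± 17.5 to 589 ± 72.8 (SD, n = 3 each; log2 fold change 0.98, adjusted p 0.00332 by limma), and Lrp1, a receptor for heme bound to hemopexin, fell (-0.47, adjusted p 0.019 by limma). Lrp1 kept its call in only 1 of the 6 fits that left out an array, the one without tumor 2 (-0.52 to -0.42 over all 6), and lost it with spike-in scaling (-0.27, adjusted p 0.444).

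**Figure D3:**
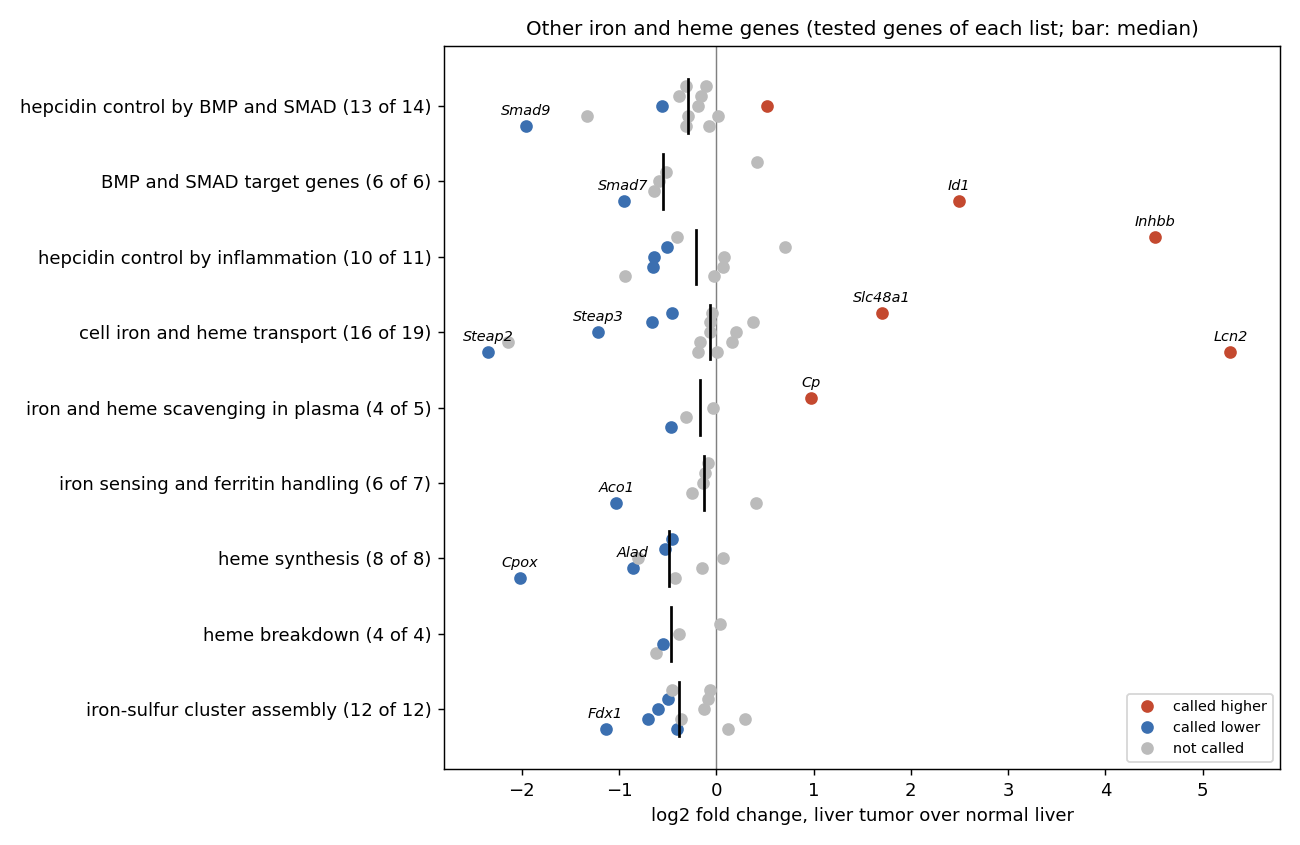
Points are the tested genes of 9 iron and heme lists, by log2 fold change of tumor over normal liver on the horizontal axis, coloured red where called higher, blue where called lower and grey where not called, with a bar at each list's median and the tested and total genes beside each name. Heme synthesis and iron-sulfur cluster assembly hold only lower calls, and the points farthest to the right are Lcn2 at 5.29 and Inhbb at 4.51.

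In the enzymes that make and use heme and iron-sulfur clusters every called gene was lower. Of all genes 21.0% were called lower and 13.1% higher. The shares called lower in heme breakdown (1 of 4) and in iron sensing and ferritin handling (1 of 6) were near that 21.0%. With spike-in scaling the lower calls went from 4 to 1 of 8 for heme synthesis and from 5 to 1 of 12 for iron-sulfur cluster assembly. They went from 1 to 0 of 4 for heme breakdown and from 1 to 0 of 6 for iron sensing and ferritin handling. In that scaling 8.01% of all genes were called lower. Of 8 heme synthesis genes 4 fell, led by Cpox, coproporphyrinogen oxidase, at 33.0, 45.0 and 33.7 in normal liver and 6.71, 11.4 and 9.79 in the tumors (log2 fold change -2.02 ± 0.23 (SE), adjusted p 0.00209 by limma). Alad (-0.86) and Uros (-0.45) were among the others. Of 12 genes of iron-sulfur cluster assembly 5 fell. Among them were Fdx1, a ferredoxin (-1.14), Glrx5 (-0.70) and the cysteine desulfurase Nfs1 (-0.60), with adjusted p from 0.00828 to 0.0168 by limma. Hmox2 (-0.55, adjusted p 0.0178 by limma) was the only one of 4 heme breakdown genes called. In iron sensing and ferritin handling 1 of 6 tested genes fell, Aco1, the iron-responsive element binding protein 1, from 0.945 to 0.468 (log2 fold change -1.03, adjusted p 0.022 by limma). When 1 array was left out, Uros was called in none of 6 fits (-0.51 to -0.36). The call was lost without normal liver 2 for Nfs1 and Glrx5, without normal liver 1 or 2 for Aco1, and without normal liver 2 or 3 or tumor 1 or 2 for Hmox2, with the log2 fold change between -1.18 and -0.49 throughout.

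Cell types other than hepatocytes express some of these genes, and their markers were read beside them. Slc40a1 is abundant in Kupffer cells, the macrophages of the liver that recycle iron. All 10 Kupffer cell and macrophage markers had lower means in the tumors and 7 were called lower (3 with spike-in scaling), beside 21.0% of all genes (8.01% with spike-in scaling), with a median log2 fold change of -1.10. Csf1r, the most abundant, was 35.0, 32.4 and 42.3 in normal liver and 25.5, 18.9 and 18.4 in the tumors (-0.81, adjusted p 0.0156 by limma, lost without tumor 2), and Clec4f and Timd4, found on resident Kupffer cells, fell by 1.84 and 1.65 on the log2 scale. The list's summed expression value was 141, 111 and 190 in normal liver and 95.0, 57.8 and 62.4 in the tumors. None of these markers was below background in both groups. Their part in the lower Slc40a1 was not tested.

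Bmp6 comes mainly from sinusoidal endothelial cells. Of 10 markers of these cells 2 were called lower and 1 higher, near the 21.0% and 13.1% of all genes. With spike-in scaling 0 were lower and 2 higher, beside 8.01% and 14.0% of all genes. The median of these markers was -0.01, with a summed expression value of 117, 125 and 133 in normal liver and 99.8, 108 and 101 in the tumors. Clec4g, the most abundant, was called lower (-0.49, adjusted p 0.0496 by limma), Stab1 was called higher (0.66), and Stab2 was called lower by its brightest probe (-0.78) while its probes ranged up to 0.088. Clec4g kept its call only without normal liver 1 and Stab1 only without normal liver 2 or tumor 3. Stellate cell and fibroblast markers also differed. Of 8, 4 were called lower (3 with spike-in scaling), Dcn at -1.64 and Lrat at -1.83 among them, and 2 higher in both scalings. Of all genes 21.0% were called lower and 13.1% higher, and 8.01% and 14.0% with spike-in scaling. The list's summed value was 86.0, 85.8 and 103 in normal liver and 27.8, 40.6 and 47.9 in the tumors. Dcn was its most abundant gene, and 4 of the 8 log2 fold changes were above 0, with a median of -0.24. The part of these cells in Bmp6 and Id1 was not tested.

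Among hepatocyte markers, which bear on Hamp, Tfr2 and Trf, 2 of 10 fell and 1 rose, shares near the 21.0% and 13.1% of all genes. Alb stood at 2273 ± 303 in normal liver and 2169 ± 49.4 in the tumors (SD, n = 3 each), while Cps1 (-1.48) and Tat (-1.43), enzymes of nitrogen and tyrosine metabolism, fell with adjusted p of 0.00453 and 0.00351 by limma. The list's summed value was 9294, 9115 and 8427 in normal liver and 8631, 8696 and 8388 in the tumors, 0.958 times as high on average. Red blood cell markers bear on the heme synthesis genes. Hba-a1, their most abundant gene, was 283, 157 and 103 in normal liver and 93.7, 211 and 199 in the tumors, with overlapping groups, whereas the erythroid genes Alas2 (-2.31, adjusted p 0.0147 by limma) and Klf1 (-1.78, adjusted p 0.00858 by limma) fell, Alas2 losing its call without normal liver 2. The summed red blood cell value was 529, 319 and 209 against 177, 360 and 326. Neutrophil markers, which bear on Lcn2, were called in 0 of 5 tested, beside 21.0% lower and 13.1% higher of all genes, with Csf3r at -0.01 and a summed value of 164, 171 and 149 against 177, 184 and 133.

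**Figure D4:**
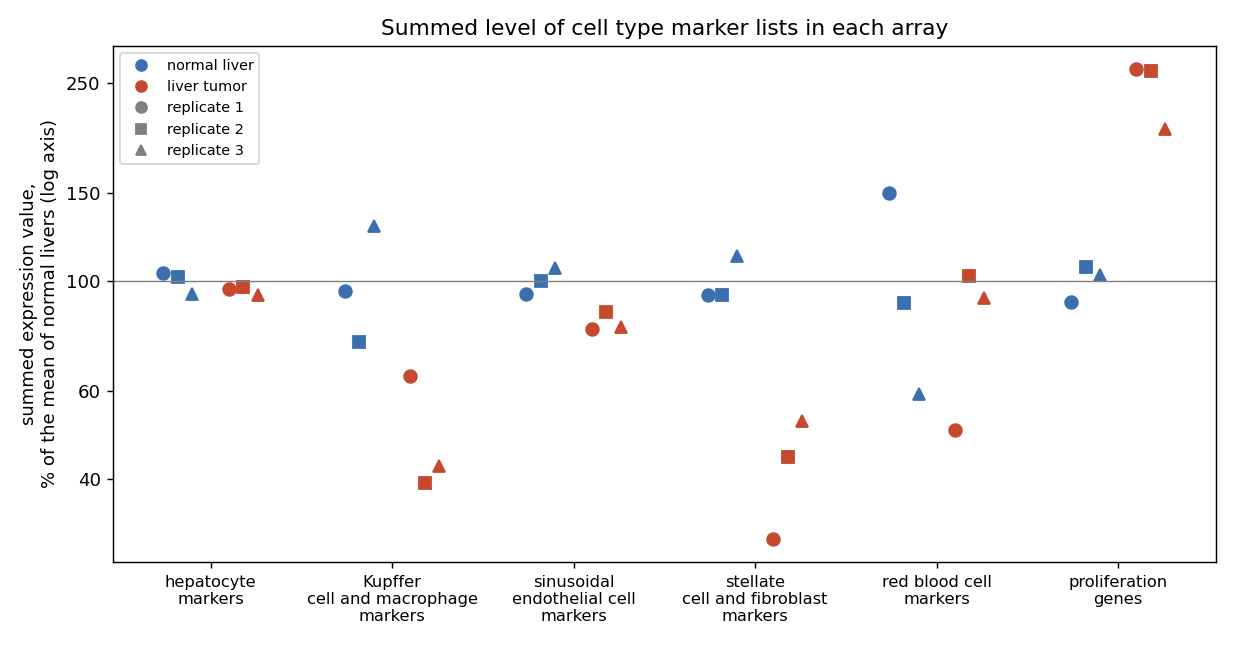
The summed expression value of each marker list is plotted per array, as a percentage of the mean of the 3 normal livers on a log axis, with normal livers in blue and tumors in red. Kupffer cell and macrophage markers lie at 39.3% to 64.5% in the tumors, stellate cell and fibroblast markers at 30.4% to 52.3%, hepatocyte markers at 93.8% to 97.2%, and proliferation genes at 203% to 266%. The most abundant genes weigh most in these sums, Dcn among the stellate cell and fibroblast markers and Pcna among the proliferation genes. The median log2 fold changes of these 2 lists were -0.24 and 3.37.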

How the data were processed

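RNA of 3 normal livers and 3 liver tumors was measured on 1-colour arrays. The deposited Feature Extraction output (version 10.7.3.1 by the file headers, 12.0.3.1 in the submitters' processing notes) gives the processed signal intensity of each spot, background subtracted and spatially detrended by the authors, and the mean and local background intensities. A second deposited table holds those signals as a ratio to each array's 75th percentile and served as an alternative. Here, each processed signal was divided by the 75th percentile of all spots on its array and put on the log2 scale. Control spots and outlier spots were left out, and spots of a probe were averaged. The 24898 probes that were well above background in every sample of either group were tested with limma 3.58.1 (lmFit and eBayes, two-sided, Benjamini-Hochberg adjustment over all tested probes, threshold 0.05) in R 4.3.3, and the limma fit was tested on simulated data. Tables and figures were made with matplotlib 3.10.9, scipy 1.17.1, numpy 2.4.6 and pandas 2.3.3 under Python 3.11.15.

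A gene was its probe with the highest mean log2 value over the 6 arrays. Probes were named through RefSeq (GRCm38.p6) by accession (27235 probes), symbol (3581) or synonym (565), and 24300 kept the design's name. Gene positions and promoters are from RefSeq for GRCm38.p6, and probe positions are those of the array files on mm9. The members, the gene lists and the rule for named genes were chosen with earlier results of these data known. The rule names all 10 members, up to 4 called genes per iron or heme list with the largest change, the most abundant gene and up to 2 called genes per cell marker list, and up to 3 genes most correlated with Hamp, Hamp2 and each called member. Probes that carry only a design name were not named in the text, and the values of a few listed genes are not reported here. Whether the samples of a group came from separate animals is not given in the sources used here, so p-values measure the spread between these samples, and 3 arrays per group limit the precision.

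Alternatives were quantile normalization, spike-in scaling, normexp background correction (offset 50), the percentile over non-control probes, no filter, a filter on all 6 arrays, a replicate block, the deposited ratios, the mean of a gene's probes, the methods' t-test on linear values (paired in the study's statistics section, with no pairing named in its note to the gene table, and with the Benjamini-Hochberg adjustment added here), and leaving out each array. Slide as a block could not be fitted, since each slide held 1 group.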

Additional observations from a re-analysis of the deposited data

How the results depend on the processing

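Spike-in scaling left 2 of the 10 genes called, against 6, with Slc40a1 at -0.66, Fth1 at -0.65, Hfe at -0.58 and Ftl1 at -0.61 no longer called, and 13 of the iron and heme genes called (6 lower) against 28 (22 lower). It called 5282 probes, 1922 of them lower, against 8238 and 5126, so that 63.6% of called probes were higher against 37.8%; the spike-in probes themselves differed by -0.49 to -0.04 on the percentile scale. Quantile normalization called Trf higher (0.30), the 1 higher call among the 10 genes, and lost Ftl1 (-0.59). Without the filter, 4674 probes were called (2071 higher, 2603 lower), 13 iron and heme genes were called (8 lower), and Ftl1 was lost at -0.81 (adjusted p 0.0612). Normexp called Bmp6 (-0.34). The mean of both Trf probes gave -0.041, below 0 where the brighter probe was above.

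The methods' t-test, which the study's statistics name as paired, had 7418 probes at an unadjusted p under the threshold on linear values, and its unpaired form 10068. After adjustment the unpaired form called 5261 probes (1739 higher) and 3 iron and heme genes higher, and lost Hamp (-2.51, adjusted p 0.0588) and Hfe (-0.79, adjusted p 0.0540). The paired form, which rests on 3 differences per probe, called 0 probes, 0 of the 10 genes and 0 iron and heme genes. It had Hamp at -2.51, Tfr2 at -0.87, Slc40a1 at -0.85, Fth1 at -0.84, Ftl1 at -0.79 and Hfe at -0.79.

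With the replicate number as a block limma called 7020 probes, and all 10 genes kept their call or lack of one. Deviations of samples with the same number correlated at 0.07, 0.13 and 0.05, and not every sample correlated best with its own number, so the numbers were not taken as pairs.

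Leaving out 1 array at a time called 4965 to 7116 probes (2334 to 2873 higher, 2631 to 4243 lower), 5 to 7 of the 10 genes, and 16 to 27 iron and heme genes (11 to 22 lower). The lowest counts came without normal liver 2, and 14 iron and heme genes were lower without normal liver 3. The ranges were -2.75 to -2.23 for Hamp, -0.92 to -0.82 for Tfr2, -0.999 to -0.755 for Slc40a1, -0.92 to -0.75 for Fth1, -0.97 to -0.65 for Ftl1, -0.89 to -0.65 for Hfe and -0.67 to -0.36 for Bmp6.

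Among uncalled markers the sign turned for Alb (0.056 with normexp, 0.082 with quantile normalization, 0.14 with spike-ins), Csf3r (0.091, 0.20 and 0.18, 0.12 without tumor 3, 0.026 without normal liver 2, from -0.12 to 0.12 over the arrays left out), Hba-a1 (0.13 with quantile normalization, 0.12 with spike-ins, 0.30 without tumor 1, 0.31 without normal liver 1, down to -0.42 without normal liver 3), Pcna (-0.045 without normal liver 1, up to 0.037 without normal liver 2) and Spp1 (0.0068 with spike-ins). The cause of these shifts was not tested. Dim genes such as Bmp6 and Steap2 lie close to the lowest signals well above background, 0.10 to 0.15.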

Other observations

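Proliferation genes and markers of lymphocytes and cholangiocytes were read as well. Of 10 proliferation genes 9 were called higher in the tumors, beside 13.1% of all genes, the median log2 fold change was 3.37, and Pcna, their most abundant gene, was at 0.01. Mki67, which marks cycling cells, rose from 0.261 ± 0.0562 to 4.73 ± 1.30 (SD, n = 3 each; log2 fold change 4.16, adjusted p 2.54e-04 by limma). Ccnb1, the mitotic cyclin B1, was not well above background on any normal array and by its brightest probe was higher in the tumors by at least 13.0-fold (adjusted p 2.22e-04 by limma). A second Ccnb1 probe had a smaller log2 fold change of 2.52 and was also called, and normexp gave 1.95 for the brightest probe.

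Of 4 tested T and B lymphocyte markers 1 was called (2 with spike-in scaling), beside 13.1% of all genes called higher (14.0% with spike-in scaling). It was Cd4, at 60.9, 58.8 and 58.8 in normal liver and 235, 184 and 134 in the tumors (log2 fold change 1.59, adjusted p 0.0032 by limma). Cd3g, Cd8a and Ms4a1 were among the markers that were not well above background on all arrays of either group. None of 4 tested cholangiocyte markers was called, beside 21.0% of all genes called lower and 13.1% higher, with Spp1 at -0.19, its sign turned only by spike-in scaling (0.0068) among the alternatives, and Krt7 and Epcam were not tested.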
